A study of Rattus norvegicus with 17 samples.

Results

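Insulin and the insulin-like growth factors (IGFs) signal through 10 genes described here: the ligand Igf1, the receptors Igf1r and Insr, the adaptors Irs1 and Irs2, and the binding proteins Igfbp2, Igfbp3, Igfbp4, Igfbp5 and Igfbp6. They were found by gene symbol among the 34322 genes of the count table, which held all 10 of them. IGF-1 is made in the brain as well as in the liver and binds the receptor tyrosine kinase encoded by Igf1r, while insulin acts through the closely related receptor encoded by Insr. Either receptor phosphorylates the adaptors Irs1 and Irs2, which pass the signal to phosphoinositide 3-kinase, AKT and mTOR and to the MAP kinases. The binding proteins hold IGFs outside the cell, where they carry them, prolong their life or keep them from the receptor, and Igfbp6 prefers IGF-2. In the hippocampus the pathway is known for its part in neuronal survival, synaptic plasticity and adult neurogenesis, and it has long been studied as a target of ethanol in the developing brain.

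RNA was sequenced from the hippocampus of adolescent Long-Evans rats aged 36 to 38 days whose dams had received 1 of 3 diets. Dams of the ethanol-treated group (ET, 5 libraries) drank a liquid diet with 6.7% ethanol from gestational day 0 to 20. Dams of the pair-fed group (PF, 6 libraries) were given a liquid diet without ethanol, matched to the intake of the ET dams, and those of the ad libitum group (AD, 6 libraries) ate standard chow freely. The liquid diets ended on gestational day 20, and the litters of all 3 groups were reared by dams on rodent chow. All offspring of a diet came from a single litter, so diet and litter cannot be told apart, and every p-value below measures only the spread between littermates. Animals of both sexes were pooled, and 4 of the 17 libraries came from the right hippocampus and the others from the left. The right ones were ET replicate 2, left out of the comparisons below, PF replicates 1 and 6, and AD replicate 3. Hemisphere was therefore uneven across the diets compared.

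Total counts lay between 10853947 and 17498392 per library. One library of each diet (ET replicate 2, PF animal 11f6 and AD replicate 4) was rich in choroid plexus RNA: the summed normalised count of 12 choroid plexus genes was 130230 to 152220 in these 3 libraries and 2861 to 23753 in the other 14. The study set these 3 aside, and the comparisons below use the other 14 libraries (4 ET, 5 PF and 5 AD), with the value over all 17 given beside each log2 fold change of a member that it moved by more than 0.1. The 12 choroid plexus genes were Ttr, Folr1, Kl, Aqp1, Clic6, Kcne2, Otx2, Slc4a5, Sostdc1, Prlr, Tmem72 and Enpp2. Over these 14 libraries the median of their sum was 4559 and that of Enpp2 alone 3505, so at this level the sum was mostly Enpp2. Which of its genes carried the correlations given below was not tested. Sex-linked genes went against the sex label in 2 libraries, AD replicates 1 and 2, and both stayed in the diet comparisons because sexes were pooled. The 6 hippocampal neuron genes checked (Prox1, Wfs1, Neurod6, Zbtb20, Slc17a7 and Neurod1) summed to 28912 to 40940 in the 14 libraries. The normalised read count used throughout is a library's count scaled by the trimmed mean of M-values (TMM) to the mean library size. It compares libraries for 1 gene and not 1 gene with another, because transcript lengths were not used.

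Of the 10 genes, 2 differed between diets, both between the control groups PF and AD and neither between ET and another group. A gene was called where the adjusted p of edgeR's quasi-likelihood test was below 0.05 over all genes tested. Igfbp4 was lower in PF than in AD, at 0.592 of the AD level, and Igf1r was higher in PF than in AD, by 1.31-fold. The same comparison called 4.32% of 15960 genes as higher in PF and 0.846% as lower. No member was called between ET and PF, where 0.541% of 16068 genes were higher and 3.59% lower in ET, nor between ET and AD, where 0% of 15749 genes were higher and 0.0127% lower. In that last comparison 432 genes had an unadjusted p below 0.05, and DESeq2 called 11. The median log2 fold change of the 10 members was -0.049 for ET against PF, 0.016 for ET against AD and -0.030 for PF against AD, beside medians of 0.0053, 0.0028 and -0.0029 over all genes tested.

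**Figure D1:**
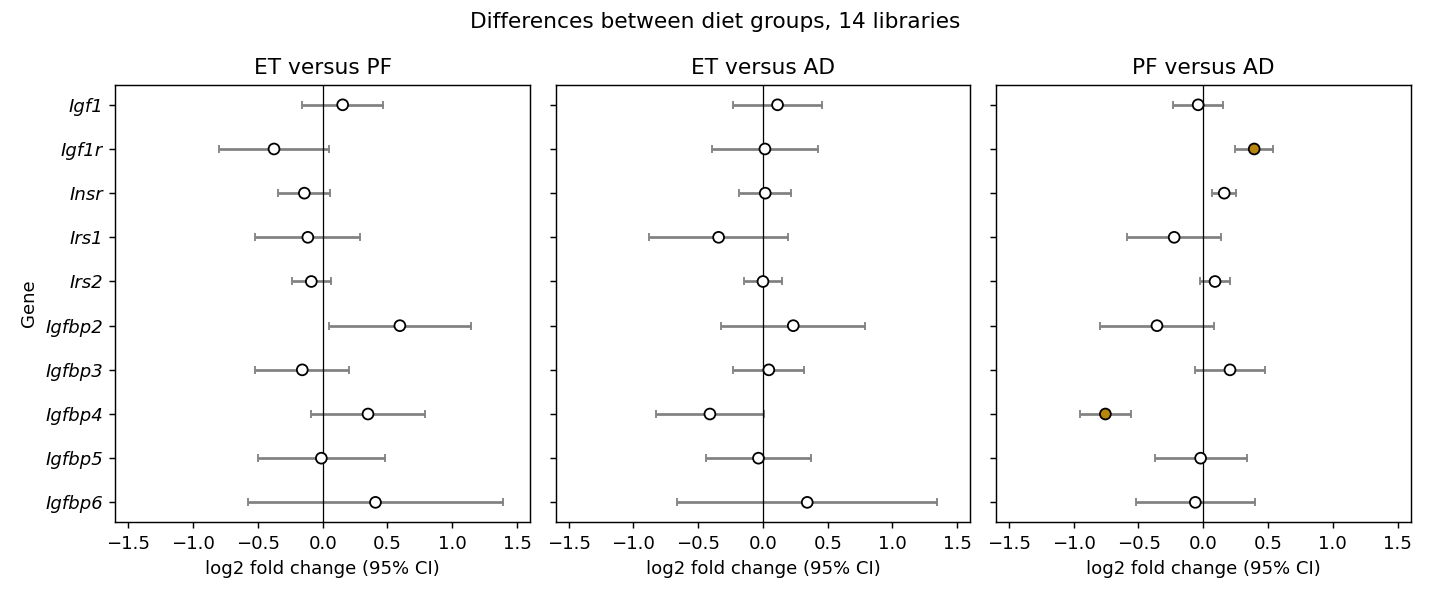
Log2 fold change of each of the 10 genes (x axis, with its 95% confidence interval from edgeR) in the comparisons ET versus PF, ET versus AD and PF versus AD over 14 libraries. Filled points mark adjusted p below 0.05: Igf1r at 0.39 and Igfbp4 at -0.76, both in PF versus AD, and the other 28 points are open.

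The promoters of the 2 genes that were called, and of Igfbp2, whose level varied most over all 17 libraries, are shown so that their sequences can be read beside their values. Each runs from 250 bases before to 50 bases after the annotated start on the rat assembly GRCr8 (RefSeq), 5′ to 3′ along the gene's strand, which is the plus strand for all 3. The windows are chr1:130959747-130960046 for Igf1r, chr10:84491221-84491520 for Igfbp4 and chr9:81864561-81864860 for Igfbp2. Capitals mark a GC box (GGGCGG) or a TATA box (TATAAA), searched on both strands:
Igf1r: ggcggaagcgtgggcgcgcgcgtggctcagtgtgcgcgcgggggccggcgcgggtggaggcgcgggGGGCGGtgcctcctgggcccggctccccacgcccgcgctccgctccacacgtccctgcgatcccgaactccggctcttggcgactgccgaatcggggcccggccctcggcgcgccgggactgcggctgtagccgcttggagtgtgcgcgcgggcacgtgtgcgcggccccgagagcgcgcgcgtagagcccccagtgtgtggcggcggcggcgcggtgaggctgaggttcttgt
Igfbp4: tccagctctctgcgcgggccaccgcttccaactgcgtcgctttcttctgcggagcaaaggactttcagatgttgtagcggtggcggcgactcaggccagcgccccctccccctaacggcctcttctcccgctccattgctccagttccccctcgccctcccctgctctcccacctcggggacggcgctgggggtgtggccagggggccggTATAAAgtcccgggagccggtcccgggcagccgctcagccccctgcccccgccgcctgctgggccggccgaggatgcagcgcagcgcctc
Igfbp2: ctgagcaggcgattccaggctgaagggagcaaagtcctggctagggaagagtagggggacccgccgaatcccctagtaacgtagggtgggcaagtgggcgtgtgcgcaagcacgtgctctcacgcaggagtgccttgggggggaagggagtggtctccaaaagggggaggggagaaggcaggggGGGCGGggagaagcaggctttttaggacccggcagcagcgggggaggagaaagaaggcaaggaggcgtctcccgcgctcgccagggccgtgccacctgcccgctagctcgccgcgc

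The Igf1r window was 78.0% G and C, held 1 GC box with its first base at -184 from the start, and held no TATAAA. The Igfbp4 window was 71.0% G and C, with 1 TATAAA at -40 and no GC box, and the Igfbp2 window was 66.7% G and C, with 1 GC box at -66 and no TATAAA. Over 33469 promoters of the same length, 33.1% held a GC box and 14.2% a TATAAA, and the median G and C content was 51.7%. Promoters were on hand for 9 of the 10 genes, all but Irs2. Among those 9, a GC box was found in 3 (Igf1r, Irs1 and Igfbp2) and a TATAAA in 1 (Igfbp4). The forkhead-type motif GTAAACA, on either strand, was in 2 (Insr and Igfbp6) and in 3.78% of all promoters, and CCAAT was in 0 of the 9 and in 37.5% of all.

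Igf1, the only ligand among the members, did not differ between diets beyond the spread between littermates. Its normalised read count was 196, 281, 342 and 326 in ET replicates 1, 3, 4 and 5. In PF it was 266, 254, 272 and 230 in replicates 1, 2, 3 and 6 and 262 in animal 11f5, and in AD it was 230, 266, 292, 305 and 230 in replicates 1, 2, 3, 5 and 6. The ET group therefore held both the lowest and the highest of the 14 values, and the range of PF and of AD lay inside it. The group means were 286 ± 65.4 (SD, n = 4) for ET, 257 ± 16.3 (SD, n = 5) for PF and 265 ± 34.7 (SD, n = 5) for AD. The log2 fold change was 0.15 (95% CI -0.16 to 0.47) for ET against PF, 0.11 (-0.23 to 0.46) for ET against AD and -0.039 (-0.23 to 0.15) for PF against AD, with edgeR adjusted p-values of 0.82, 1.00 and 0.88. Over all 17 libraries Igf1 differed by 0.28 for ET against PF (adjusted p = 0.41) and by 0.26 for ET against AD (adjusted p = 1.00), and neither was called. With 1 library left out, the difference ran from 0.063 to 0.30 for ET against PF and from 0.020 to 0.25 for ET against AD.

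**Figure D2:**
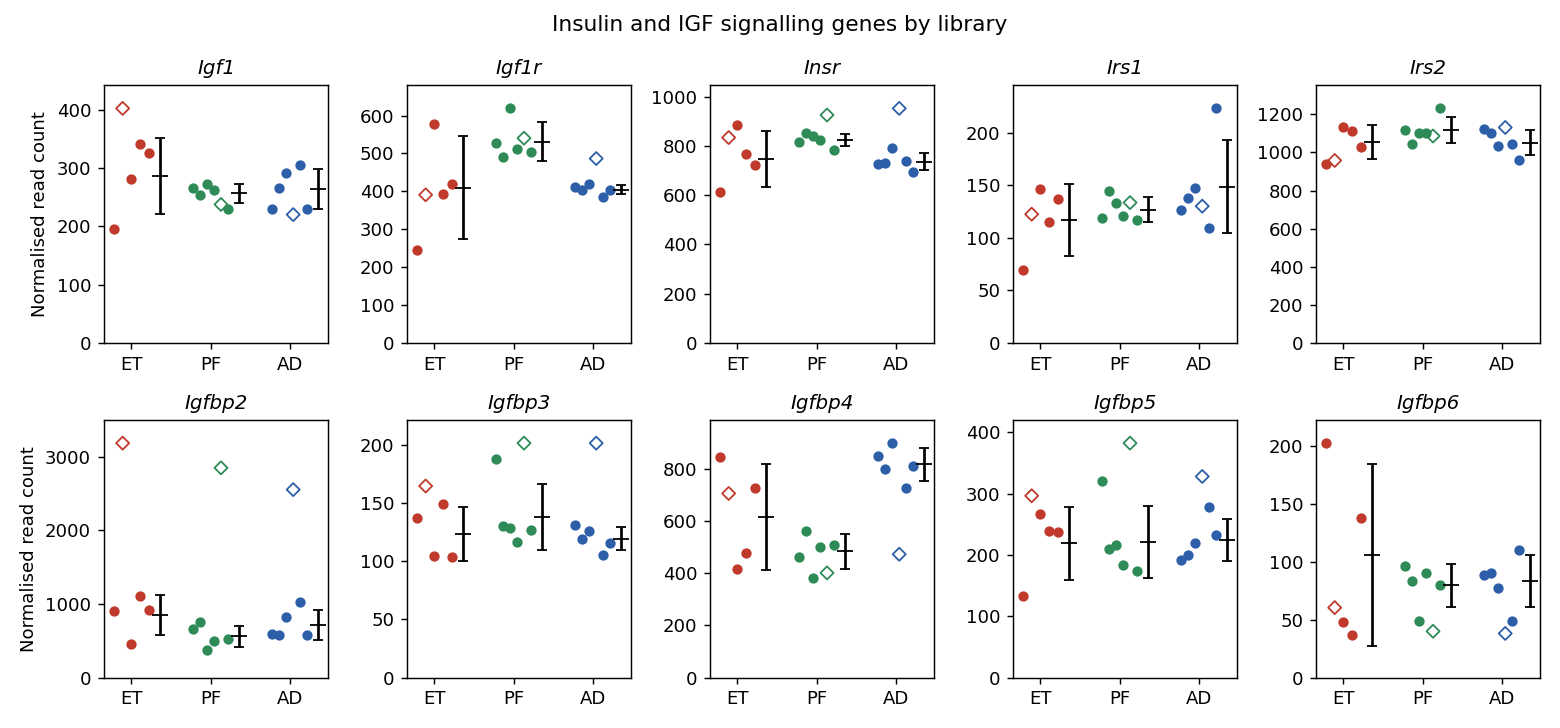
Normalised read count (y axis, from 0) of each of the 10 genes in ET, PF and AD libraries. Circles are the 14 libraries compared, open diamonds the 3 choroid plexus-rich libraries, and bars show the mean ± SD of the circles. Igf1r and Igfbp4 are the genes whose PF and AD circles do not overlap, and the 3 diamonds of Igfbp2 sit between 2552 and 3182, above every circle.

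Igf1r, which encodes the IGF-1 receptor, was higher in PF than in AD. Its normalised read count was 529, 490, 619 and 505 in PF replicates 1, 2, 3 and 6 and 513 in PF animal 11f5. In AD replicates 1, 2, 3, 5 and 6 it was 412, 403, 418, 386 and 404. Every PF library lay above every AD library, as was the case for 5.05% of all genes tested between these groups. The mean was 531 ± 51.1 (SD, n = 5) in PF and 404 ± 12.2 (SD, n = 5) in AD, and the log2 fold change was 0.39 ± 0.067 (SE; 95% CI 0.25 to 0.54; edgeR adjusted p = 0.00284). The study's own rule also asks for an adjusted p below 0.01 and a change above 1.5, which it gives in places as a log2 fold change and in another as a fold change. The rule was applied here to the edgeR fits, not to the study's own DESeq test. Read as log2, it was met by 2.05% of genes in this comparison and by neither Igf1r nor Igfbp4. Read as a fold, it was met by 2.96% of genes and by Igfbp4, but not by Igf1r. The call for Igf1r was lost when all 3 diets shared 1 estimate of the spread (adjusted p = 0.22), a fit that called 4.89% of all genes.

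The ET libraries spread from below the AD range into the PF range. Igf1r was 246, 578, 394 and 418 in ET replicates 1, 3, 4 and 5, so ET replicate 1 was the lowest of the 14 libraries and ET replicate 3 was above 4 of the 5 PF libraries. The mean was 409 ± 136 (SD, n = 4). The log2 fold change was -0.38 (95% CI -0.80 to 0.051, edgeR adjusted p = 0.52) against PF and 0.015 (-0.39 to 0.42, adjusted p = 1.00) against AD. Without ET replicate 1 the difference from PF was -0.20, and without ET replicate 3 it was -0.59 with an adjusted p of 0.089. With diet means removed, Pearson's r of log2 Igf1r over the 14 libraries was -0.62 (rho -0.60) with the log2 choroid plexus sum, -0.26 (rho -0.25) with a sum of 5 oligodendrocyte genes and -0.22 (rho -0.19) with a sum of 10 meningeal and fibroblast genes. Over all 17 libraries r with the choroid plexus sum was -0.067 (rho -0.14). That sum was 3363 to 23753 in PF and 2861 to 5641 in AD, and the part of these markers in the Igf1r difference was not tested.

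Igf1r shares its locus with another gene whose count was high in PF alone. On GRCr8 the spans of Igf1r and Pgpep1l, a peptidase-like gene on the opposite strand, overlap by 1385 bases. Its normalised read count was 64.5 to 82.3 in the 6 PF libraries, 3.35 to 7.26 in the 5 ET libraries and 0.77 to 6.74 in the 6 AD libraries, so PF did not overlap the other diets. Pgpep1l passed the filter on low counts through PF alone and was not tested between ET and AD, so these levels are given as a description with no test. The libraries were made with a stranded kit, the strand setting of the counting is not given in the sources used here, and a read was allowed to count for several genes. Overlaps on GRCr8 were counted over the genes that were tested between ET and AD too, which leaves out those that passed the filter through PF alone. Of the 64 matched genes called higher in PF than in AD by the study's rule read as log2, 93.8% overlapped another gene. For the genes called higher without meeting that rule, among them Igf1r, the share was 72.1%, for genes called lower it was 37.5%, and for all genes it was 45.0%. On GRCr8 the lncRNA LOC134483685 overlaps Igf1r on the opposite strand too, and it is not in the count table. The part of overlapping reads in the Igf1r difference was not tested.

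**Figure D3:**
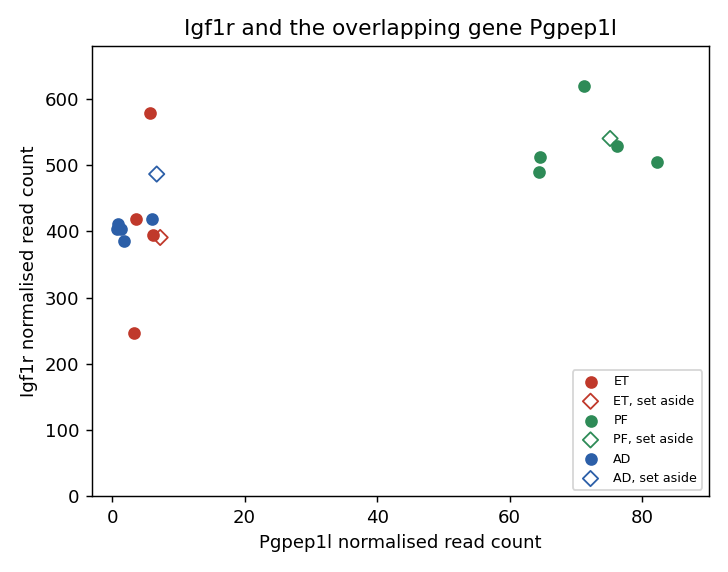
Igf1r (y axis) against Pgpep1l, the overlapping gene on the opposite strand (x axis), both as normalised read counts, in all 17 libraries, with diamonds for the 3 set aside. The 6 PF libraries stand apart on the x axis at 64.5 to 82.3, while the ET and AD libraries stay at 7.26 or below and spread from 246 to 578 on the y axis.

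Insr, which encodes the insulin receptor, showed the same order of group means as Igf1r, with a smaller difference of PF from both AD and ET. It was 818, 852, 840, 823 and 785 in PF replicates 1, 2 and 3, animal 11f5 and replicate 6. It was 725, 731, 791, 741 and 695 in AD replicates 1, 2, 3, 5 and 6, and 611, 883, 769 and 724 in ET replicates 1, 3, 4 and 5. Only the highest AD library (791) exceeded the lowest PF library (785), and the ET libraries spanned both groups. The means were 823 ± 25.4 (SD, n = 5) in PF, 737 ± 35.0 (SD, n = 5) in AD and 747 ± 113 (SD, n = 4) in ET. PF exceeded AD by a log2 fold change of 0.16 ± 0.043 (SE; 95% CI 0.068 to 0.26), which missed the threshold with edgeR (adjusted p = 0.054) and passed it with DESeq2 (adjusted p = 0.0499). Insr is overlapped on GRCr8 by a pair of annotated lncRNAs, neither of which is in the count table. ET differed from PF by -0.14 (-0.34 to 0.059) and from AD by 0.018 (-0.18 to 0.22), with adjusted p-values of 0.66 and 1.00.

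The adaptors Irs1 and Irs2, which dock on the activated receptors, did not pass the test in any diet comparison. Irs2 varied least of the 10 genes: its 14 values ran from 939 in ET replicate 1 to 1231 in PF replicate 6, a coefficient of variation of 6.95%. Its means were 1054 ± 88.2 (SD, n = 4) in ET, 1120 ± 68.2 (SD, n = 5) in PF and 1051 ± 63.7 (SD, n = 5) in AD, and the 95% intervals of its fold differences ran from 0.848 to 1.16 over the 3 comparisons. Irs1 was 69.7, 147, 115 and 137 in ET replicates 1, 3, 4 and 5. It was 119, 145, 133, 121 and 117 in PF replicates 1, 2 and 3, animal 11f5 and replicate 6, and 126, 138, 147, 109 and 223 in AD replicates 1, 2, 3, 5 and 6. A single library therefore lay far below the rest (ET replicate 1) and another far above (AD replicate 6), while the other 12 stood between 109 and 147. The log2 fold change of Irs1 was -0.11 (95% CI -0.52 to 0.29) for ET against PF, -0.34 (-0.88 to 0.19) for ET against AD and -0.22 (-0.59 to 0.14) for PF against AD.

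Igfbp4 encodes a binding protein that mostly holds IGFs away from their receptor, and it showed the clearest difference of the 10 genes. Its normalised read count was 462, 561, 382, 501 and 509 in PF replicates 1, 2 and 3, animal 11f5 and replicate 6. In AD replicates 1, 2, 3, 5 and 6 it was 848, 799, 898, 728 and 810. Every PF library lay below every AD library, with a gap from 561 to 728, and 1.57% of all genes tested were placed in that way. The means were 483 ± 66.7 (SD, n = 5) and 816 ± 62.8 (SD, n = 5), and the log2 fold change was -0.76 ± 0.089 (SE; 95% CI -0.95 to -0.56; edgeR adjusted p = 0.000113). The call held in each alternative fit made with an adjusted p below 0.05, including all 17 libraries (-0.70, adjusted p = 0.00591), although AD replicate 4, the choroid plexus-rich library of that diet, read 472 and lay within the PF range.

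The ET libraries fell into both ranges for Igfbp4. ET replicates 1 and 5 had 844 and 725, near or within the AD range, and ET replicates 3 and 4 had 416 and 477, within the PF range. The ET mean was 616 ± 202 (SD, n = 4), with a log2 fold change of 0.35 (95% CI -0.093 to 0.79, edgeR adjusted p = 0.60) against PF and -0.41 (-0.82 to 0.0054, adjusted p = 1.00) against AD, the latter being -0.26 (adjusted p = 1.00) over all 17 libraries. The difference from PF was 0.16 without ET replicate 1 and 0.50 without ET replicate 3, and that from AD ran from -0.60 to -0.26 with 1 library left out. The summed count of 5 oligodendrocyte genes was 186685 to 255965 in PF, 217960 to 309450 in AD and 257698 to 328359 in ET, and the sum of the 12 choroid plexus genes was 4354 to 21085 in ET. With diet means removed, Pearson's r of log2 Igfbp4 over the 14 libraries was 0.60 (rho 0.46) with the log2 choroid plexus sum, 0.40 (rho 0.46) with the oligodendrocyte sum and 0.26 (rho 0.29) with the meningeal sum described below for Igfbp2. Over all 17 libraries r was -0.17 (rho 0.16) with the choroid plexus sum and 0.56 (rho 0.53) with the oligodendrocyte sum. The part of these markers in the Igfbp4 difference was not tested. In tissue RNA, fewer cells of a type cannot be told apart from less RNA per cell. A lncRNA overlaps Igfbp4 on the opposite strand on GRCr8 and is not in the count table.

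Igfbp6, the binding protein that prefers IGF-2, followed Igfbp4 across libraries rather than across diets. It was 202, 47.9, 36.8 and 137 in ET replicates 1, 3, 4 and 5, so the same ET libraries were high, and the same were low, as for Igfbp4. In PF it was 96.8, 83.6, 48.7, 90.1 and 80.0 in replicates 1, 2 and 3, animal 11f5 and replicate 6, and in AD it was 88.2, 90.5, 77.7, 49.1 and 111 in replicates 1, 2, 3, 5 and 6. After the diet means were removed, Pearson's r between log2 Igfbp4 and log2 Igfbp6 was 0.88 (Spearman's rho 0.65) over the 14 libraries and 0.82 (rho 0.68) over all 17. These libraries share depth scaling and dissection, and the value is a description. The log2 fold change of Igfbp6 was 0.41 (95% CI -0.58 to 1.40) for ET against PF, 0.34 (-0.66 to 1.34) for ET against AD and -0.061 (-0.52 to 0.40) for PF against AD. These intervals are the widest of the 10 genes in the comparisons with ET.

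Igfbp2, an abundant binding protein of the brain's fluid-facing and covering tissues, varied more than any other member over all 17 libraries, with a coefficient of variation of 81.5%. Over the 14 compared, Igfbp6 varied more (48.1%) than Igfbp2 (32.2%). It was 902, 460, 1106 and 918 in ET replicates 1, 3, 4 and 5. It was 654, 751, 376, 493 and 524 in PF replicates 1, 2 and 3, animal 11f5 and replicate 6, and 590, 580, 817, 1030 and 578 in AD replicates 1, 2, 3, 5 and 6. In ET, 3 of the 4 libraries exceeded every PF library, and ET replicate 3 lay below 4 of the 5. The means were 846 ± 274 (SD, n = 4) in ET, 560 ± 145 (SD, n = 5) in PF and 719 ± 201 (SD, n = 5) in AD. ET exceeded PF by a log2 fold change of 0.60 ± 0.25 (SE; 95% CI 0.047 to 1.15), with an unadjusted p of 0.036 and an edgeR adjusted p of 0.36. It was the only member with an unadjusted p below 0.05 in that comparison, where edgeR gave 1917 of all 16068 genes such a p. DESeq2 called 0 members too. Without ET replicate 3 the difference was 0.80 and passed the threshold (adjusted p = 0.0432), in a fit that called 3.96% of all genes, and over all 17 libraries it was 0.48 (adjusted p = 0.82). For ET against AD the log2 fold change of Igfbp2 was 0.23 (95% CI -0.32 to 0.79), or 0.35 over all 17, and for PF against AD it was -0.36 (-0.80 to 0.084), or -0.13 over all 17, and none of these was called.

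The level of Igfbp2 moved with markers of other tissues. In the 3 choroid plexus-rich libraries it was 3182 (ET replicate 2), 2847 (PF animal 11f6) and 2552 (AD replicate 4), which is 3.50, 5.43 and 4.33 times the median of the other libraries of the same diet. Among the other 14, Pearson's r of log2 Igfbp2 with the log2 sum of the 12 choroid plexus genes was 0.39 (rho 0.24) once diet means were removed. With the log2 sum of 10 genes of meninges and fibroblasts (such as Col1a1, Dcn, Ogn and Slc13a4) it was 0.86 (rho 0.85). That sum ran from 2591 to 4528 in ET, 2371 to 4275 in PF and 3083 to 5277 in AD. Its part in the difference between ET and PF was not tested.

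**Figure D4:**
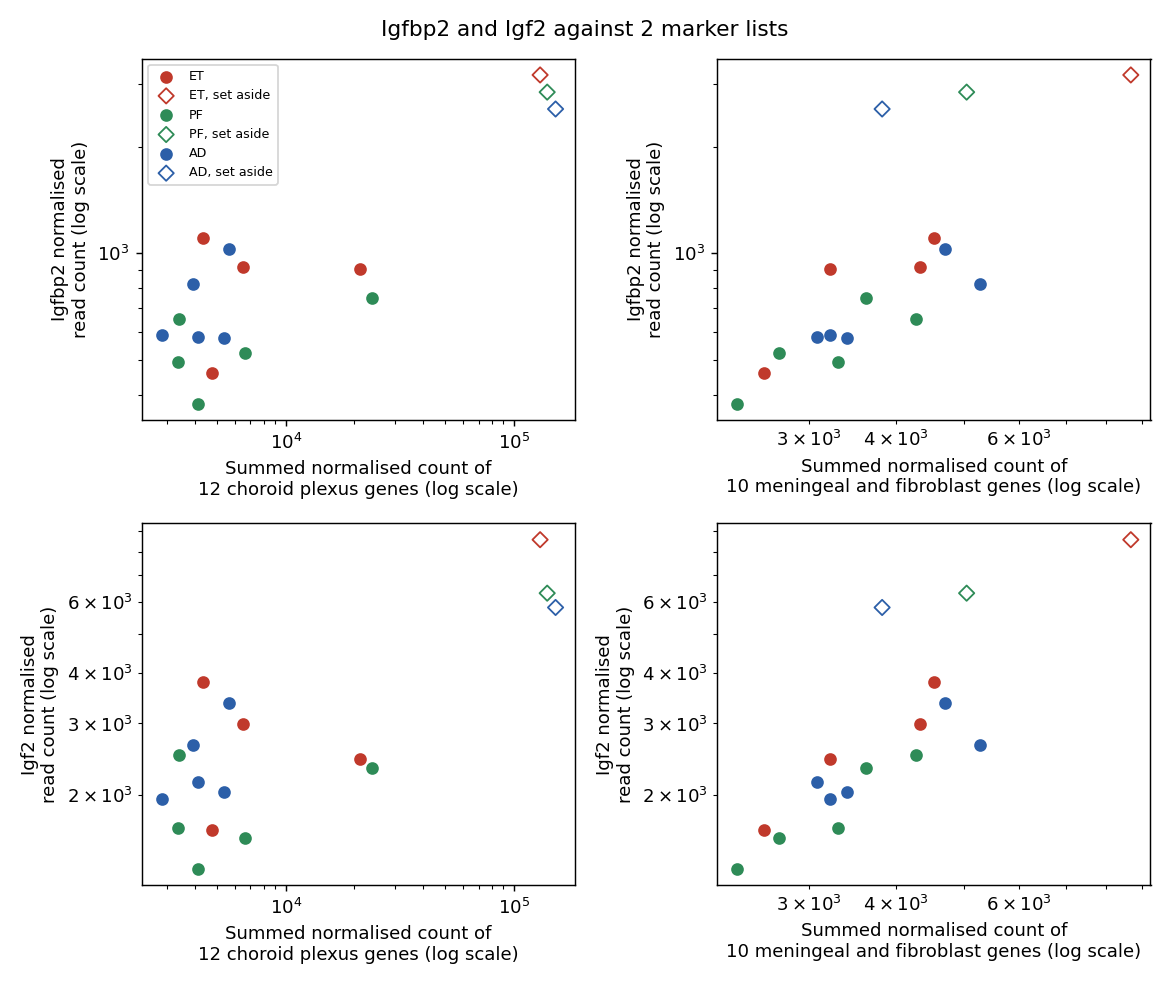
Normalised read count of Igfbp2 (top) and Igf2 (bottom) against the summed normalised count of 12 choroid plexus genes (left) and 10 meningeal and fibroblast genes (right), all axes on log scales, in all 17 libraries. The 3 diamonds are the choroid plexus-rich libraries, at sums of 130230 to 152220 on the left, and the 14 circles rise with the meningeal sum on the right.

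Igfbp3, which encodes the main carrier of IGFs in blood, and Igfbp5, a matrix-binding member of the family, did not differ between diets beyond the spread between libraries. Igfbp3 ran from 104 to 149 in ET, 117 to 188 in PF and 105 to 131 in AD, and Igfbp5 from 132 to 266 in ET, 173 to 321 in PF and 192 to 278 in AD. PF replicate 1 had the highest value of both genes among the 14 libraries. For Igfbp3 the log2 fold change was -0.16 (95% CI -0.52 to 0.21) for ET against PF, 0.045 (-0.23 to 0.32) for ET against AD and 0.21 (-0.064 to 0.48) for PF against AD. For Igfbp5 it was -0.010 (-0.50 to 0.48), -0.035 (-0.44 to 0.37) and -0.020 (-0.37 to 0.33) in the same order. Both genes were also higher in the 3 choroid plexus-rich libraries than in the median library of the same diet, by 1.36 to 1.69 times for Igfbp3 and 1.24 to 1.83 times for Igfbp5.

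Across all 17 libraries, 4 of the 10 members (Insr, Igfbp2, Igfbp3 and Igfbp5) were higher in the choroid plexus-rich library than in the median of the others in each of the 3 diets, and 1 (Igfbp6) was lower in each. Of the 16382 genes with at least 10 normalised counts in 4 libraries, 19.2% were higher in all 3 diets and 23.9% lower. For Insr the excess was 1.12 to 1.30 times and for Igfbp6 the level was 0.433 to 0.653 of the median. These 3 libraries were picked out by the study from the same expression values, so the counts describe them and test nothing.

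ET replicate 1 stood apart from its littermates for much of the family. It held the lowest of the 14 values for 6 of the 10 members (Igf1, Igf1r, Insr, Irs1, Irs2 and Igfbp5), and the highest for Igfbp6. Over all 15594 genes tested in each diet comparison, the same library held the lowest value for 18.7% and the highest for 17.5%. Its total count was 13018502, within the range of the others, its summed astrocyte and hippocampal neuron markers were the lowest of the 14 (28033 and 28912), and its oligodendrocyte and GABA interneuron sums were the highest (328359 and 6793). Its choroid plexus sum was 21085, beside 4354 to 6465 in the other 3 ET libraries compared, and was exceeded among the 14 by PF replicate 2 alone (23753). Its part in the spread of the ET group was not tested beyond leaving it out, which turned the ET against PF difference of Irs1 from -0.11 to 0.065, that of Igfbp5 from -0.010 to 0.16 and that of Igfbp6 from 0.41 to -0.11. Against AD, leaving it out turned Igfbp3 from 0.045 to -0.014, Igfbp5 from -0.035 to 0.14 and Igfbp6 from 0.34 to -0.18. None of these differences was called with or without that library. ET replicate 3, whose removal moved Igfbp2, Igf1r and Igfbp4, stood apart in other markers: its sum of 6 thalamus genes was 3149, beside 1475 to 2138 in the other 13 libraries, and its astrocyte sum (44354) was the highest of the 14. The part of these markers in its values was not tested. A sum can follow single genes of its list. Over all libraries the astrocyte gene Slc1a2 ran from 1530 to 8632 and Gja1 from 6043 to 8100. Among the hippocampal neuron genes Zbtb20 ran from 1591 to 6416 and Slc17a7 from 20750 to 27061.

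**Figure D5:**
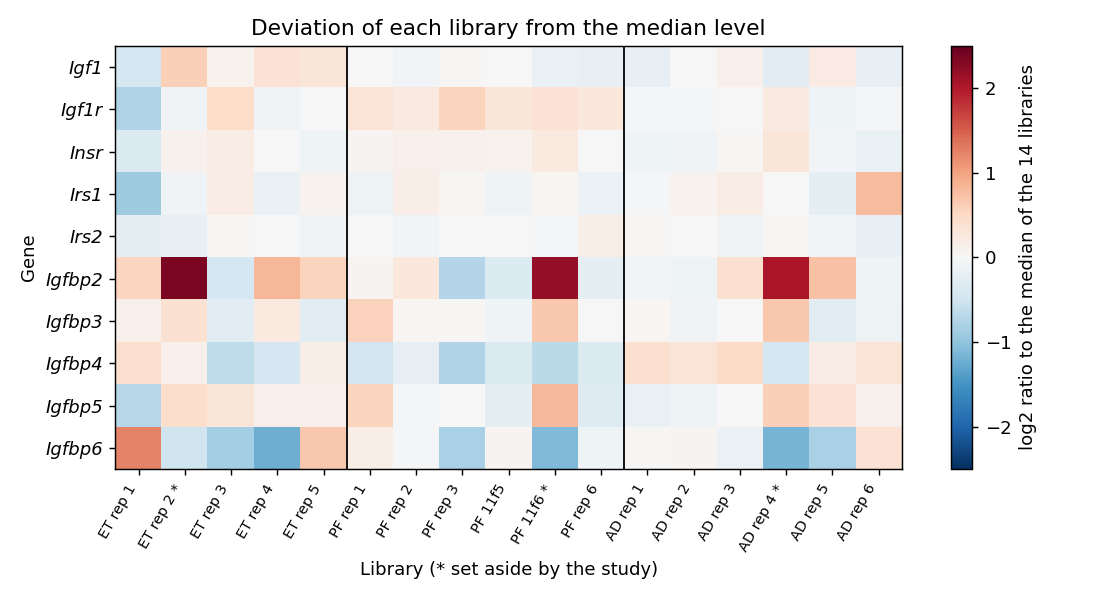
Log2 ratio of each library's normalised read count to the median of the 14 libraries compared (colour, red above and blue below) for the 10 genes (rows) in 17 libraries (columns, ordered by diet, with an asterisk on the 3 set aside). Igfbp2 is darkest in the 3 choroid plexus-rich libraries, Igf1r is above the median in the PF columns, and ET replicate 1 is below it for 6 genes that are lowest there.

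For 0 of the 10 members did the libraries of ET separate from those of PF or of AD. Between ET and PF 6.76% of genes did not overlap (1.87% higher and 4.89% lower in ET), and between ET and AD 1.21% did not (0.762% higher and 0.451% lower), beside 6.62% between PF and AD. By the study's rule read as log2 and applied to the edgeR fits, 2.17% of genes were called between ET and PF and 0.0127% between ET and AD. Neither call set held a member. With its own DESeq test the paper reports many more genes between ET and AD. Read as a fold, these shares were 2.86% and 0.0127%, again with 0 members. In ET against AD, 0 members had an unadjusted p below 0.05 and DESeq2 called 0. The member nearest to the threshold there was Igfbp4, with an unadjusted p of 0.0525.

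Sex was compared over the ET and PF libraries with diet in the same fit, and 0 of the 10 members were called, with 0 at an unadjusted p below 0.05 and 0 called by DESeq2. Of all 16484 genes, 313 had an unadjusted edgeR p below 0.05. In all, 0.0425% of 16484 genes were called between males and females by edgeR and 0.0403% of those with an adjusted p by DESeq2. The log2 fold change of males against females ran from -0.17 for Igfbp6 to 0.16 for Igf1. With the choroid plexus-rich ET and PF libraries included, both of which came from males, Igfbp2 moved from 0.14 to 1.21, Igfbp3 from -0.14 to 0.073, Igfbp5 from -0.15 to 0.14 and Igfbp6 from -0.17 to -0.38, and each still had an adjusted p of 1.00. The 95% interval of the fold was 0.942 to 1.17 for Irs2, the narrowest, and 0.429 to 1.85 for Igfbp6, the widest.

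Beyond the members, 66 other genes of the pathway were listed, from further ligands and binding proteins to PI3K, AKT, mTOR, FOXO and MAP kinase components, and 65 of them were in the count table. Between ET and PF 62 were tested and 1 was called, as lower in ET. Between ET and AD 61 were tested and 0 were called by edgeR, with 1 at an unadjusted p below 0.05, and between PF and AD 63 were tested and 1 was called, as higher in PF. Both calls were Igfals, which passed the filter on low counts through PF alone. The median log2 fold change of the list was 0.0066, -0.010 and -0.014 in the 3 comparisons. With edgeR, 0 of the 13 PI3K and AKT genes, 12 mTOR genes, 9 output genes such as Foxo1 and Gsk3b, and 6 MAP kinase genes were called in the diet comparisons. The nearest were Gsk3a, a kinase held in check by AKT, at 0.15 for PF against AD (adjusted p = 0.0504), and Foxo4, a transcription factor held out of the nucleus by AKT, at 0.25 for ET against PF (adjusted p = 0.081). DESeq2 called 2 genes of the list between ET and PF (Igfals and Foxo4), 0 between ET and AD, and 5 between PF and AD, where it called 3.92%, 0.0598% and 5.15% of all genes with an adjusted p. The 5 were Igfals, Gsk3a (0.15), the lipid phosphatase Inppl1 (-0.24) and the PI3K regulatory subunits Pik3r2 (-0.19) and Pik3r3 (-0.23).

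Igfals, which encodes the acid-labile subunit that joins IGFs and Igfbp3 in blood, rose above 3 counts in PF alone. Its normalised read count was 27.1 to 40.8 in the 6 PF libraries and 0 to 1.34 in the 11 ET and AD libraries, where no library had more than 1.33 counts. Since a gene that enters the test through 1 group alone had to differ, these levels are a description. Igfals overlaps Nubp2 on the opposite strand on GRCr8, and Nubp2 was 141 to 180 in ET, 164 to 202 in PF and 157 to 176 in AD. As for Igf1r, the part of overlapping reads was not tested.

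Igf2, the second IGF and a product of meninges and choroid plexus in the adult brain, was the gene whose pattern over the 14 libraries was most like that of Igfbp2. With diet means removed, Pearson's r between their log2 normalised counts was 0.95 (rho 0.94) over 14 libraries, the highest of 16382 genes. Over all 17 libraries it was 0.98 (rho 0.94), second to C1qtnf3 (0.98, rho 0.95). Igf2 was 2721 ± 915 (SD, n = 4) in ET, 1871 ± 517 (SD, n = 5) in PF and 2429 ± 593 (SD, n = 5) in AD, and 5818 to 8566 in the 3 choroid plexus-rich libraries. Its log2 fold change was 0.54 for ET against PF (edgeR adjusted p = 0.43), 0.16 for ET against AD (adjusted p = 1.00) and -0.38 for PF against AD (adjusted p = 0.37). Igf2r, which clears IGF-2 from the cell surface, differed by 0.094, 0.026 and -0.065 in the same order, and Igfbp7, a low-affinity relative of the binding proteins found in vessels, by 0.30, -0.023 and -0.32, and neither was called.

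For the other members, the genes most alike over the 14 libraries by the same measure were Slc1a2, the astrocyte glutamate transporter, for Igf1r (r = 0.99, rho 0.86), Fam210a for Insr (0.96, rho 0.87) and Lhfpl6 for Igfbp4 (0.96, rho 0.91). They were Smc3 for Igf1 (0.92, rho 0.90), Nfatc3 for Irs1 (0.92, rho 0.93) and Ahdc1 for Irs2 (0.92, rho 0.92). They were Pex7 for Igfbp3 (0.87, rho 0.90), Hhipl1 for Igfbp5 (0.93, rho 0.91) and LOC685668 for Igfbp6 (0.96, rho 0.93). Lhfpl6 was also among the 3 genes most like Igfbp4 over all 17 libraries (r = 0.94), and Hipk2 was among the 3 most like Igf1r over 14 (r = 0.99) and over 17 (r = 0.96). Igf1r and Insr had an r of 0.88 but a rho of 0.42 over the 14 libraries.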

How the data were processed

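Hippocampal RNA of 17 rats was sequenced from stranded mRNA libraries in 3 technical runs each. The authors trimmed the reads with Fastp, aligned them to mRatBN7.2 with Bowtie2 2.4.2 and counted fragments over exons with featureCounts 2.0.1 (mapping quality of at least 10, several features allowed per read). The deposited values are estimated counts, the average over the 3 runs, and 99.9976% of them gave whole numbers when multiplied by 3 (within 1e-04). They were rounded and tested with edgeR 4.0.16 (quasi-likelihood, TMM, low counts filtered, Benjamini-Hochberg adjustment) between pairs of diets over 14 libraries, and between sexes over ET and PF with diet as covariate. Sexes were checked with Y-linked genes and LOC100911498. Alternatives included DESeq2 1.42.0, other scaling, no filter, all 17 libraries and each library left out. Replicate pairs within a diet differed by more than sampling noise (the smallest of 40 chi-square values per gene was 2.87). Columns of animals 11f5 and 11f6 are PF by name, without a replicate number. The 10 genes and all lists were chosen with earlier results of these data known. Named genes were all members, listed pathway genes called in a diet comparison, Igf2, Igf2r, Igfals and Igfbp7, the pathway genes nearest to the threshold (chosen after their values were seen), and the 3 genes most correlated with each member, of which the first is mostly given. Promoters and gene overlaps are from RefSeq on GRCr8, a later build than the counts.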

Additional observations from a re-analysis of the deposited data

Results flagged for a closer look

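Of 42 sets of values (14 genes in 3 diets, all 17 libraries), 9 held a library far from the others of its diet. A set counted where the gap to the nearest library, as a share of the range, passed a fixed limit, stricter for 5 libraries than for 6. The shares of the 9 ran from 0.626 to 0.849, and sets short of the limit were not counted. For independent, normally distributed values chance passes such a limit in about 1 of 20 sets. These sets share the same libraries, and the study set 3 libraries aside from the same expression values, so the count is a description. Of the 9, 8 were in the choroid plexus-rich libraries. They were Igfbp2 in ET replicate 2 (3182), in PF animal 11f6 (2847) and in AD replicate 4 (2552), and Igf2 in PF animal 11f6 (6313) and AD replicate 4 (5818). In AD replicate 4, Igf1r (487), Insr (952) and Igfbp3 (201) also stood above the other AD libraries. The remaining one was Irs1 in AD replicate 6 (223), a library kept in the comparisons. All are normalised read counts, and the summed choroid plexus marker count of AD replicate 4 was the highest of all libraries (152220).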

How the results depend on the processing

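Igfbp4 in PF against AD kept its direction and its call in every alternative with an adjusted p below 0.05, and Igf1r in all of them but the fit of 3 diets at once (0.39, adjusted p = 0.22), where the members called fell to 1 and the genes called were 795 (4.89%) beside 825. By the study's rule read as log2, 0 members and 327 genes were called between PF and AD, and 349 genes between ET and PF. With its limit read as a fold, a reading added after seeing the data, 1 member (Igfbp4) and 472 genes were called between PF and AD. Insr in PF against AD passed with DESeq2, in the left hippocampus alone (0.22, adjusted p = 0.0252), without PF replicate 6 (adjusted p = 0.028) and without AD replicate 3 (adjusted p = 0.0304), fits that called 5.15%, 5.55%, 7.31% and 4.69% of all genes. Between ET and AD, where 2 genes were called, 11 were called by DESeq2, 6 with all 17 samples and 5 with 3 diets at once, and leaving out 1 library gave 2 to 4. Members called between ET and PF were 0 to 1 with 1 library left out, and genes called 541 to 661, with 643 (3.96%) without ET replicate 3, where Igfbp2 was the member called. The cause of these shifts was not tested.

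Same-numbered animals came from different litters, and the correlations of their deviations ranged from -0.05 to 0.59 (ET and PF), -0.37 to 0.26 (ET and AD) and -0.08 to 0.27 (PF and AD). The numbers were therefore not taken as pairs. With a replicate block, over the numbered libraries only, 359 genes were called between ET and PF, and Igf1r (0.38) and Igfbp4 (-0.81) were still called between PF and AD. A library correlated best with its own number for 1 ET library against PF, 0 against AD and 1 PF library against AD.

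The log2 differences that changed sign were all uncalled in either fit. With the replicate block, for ET against PF, these were Igf1 (-0.19) and Igf2r (-0.068). There too, for ET against AD, these were Igf1 (-0.054), Igf1r (-0.033), Insr (-0.035), Irs2 (-0.045), Igfbp2 (-0.12), Igfbp3 (-0.069), Igf2 (-0.18), Igf2r (-0.098) and Igfbp7 (0.078). There too, for PF against AD, these were Igf1 (0.014) and Igfbp5 (0.10). In the left hippocampus alone, for ET against PF, this was Igfbp5 (0.11). There too, for ET against AD, this was Irs2 (-0.00903). There too, for PF against AD, these were Igf1 (0.034) and Igf2r (0.00703). There too, for male against female, these were Igfbp4 (-0.019) and Igfbp5 (0.057). With sex as covariate, for ET against PF, this was Igfbp5 (0.019). With all 17 samples, for ET against AD, these were Igf1r (-0.047), Insr (-0.019), Irs2 (-0.045), Igfbp3 (-0.019), Igf2r (-0.00485) and Igfbp7 (0.030). There too, for PF against AD, this was Igfbp5 (0.029). There too, for male against female, these were Insr (0.023), Igfbp3 (0.073) and Igfbp5 (0.14). With the technical runs summed, for ET against AD, this was Irs2 (-0.00253). Without AD replicates 1 and 2, for PF against AD, this was Igfbp6 (0.016).

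With 1 library left out, some ranges crossed 0. For ET against PF they were Irs1 (-0.24 to 0.065), Igfbp5 (-0.12 to 0.16), Igfbp6 (-0.11 to 0.69) and Igf2r (-0.040 to 0.21). For ET against AD they were Igf1r (-0.20 to 0.19), Insr (-0.073 to 0.099), Irs2 (-0.035 to 0.048), Igfbp3 (-0.054 to 0.12), Igfbp5 (-0.14 to 0.14), Igfbp6 (-0.18 to 0.63), Igf2 (-0.040 to 0.34), Igf2r (-0.11 to 0.15) and Igfbp7 (-0.13 to 0.11). For PF against AD they were Igf1 (-0.085 to 0.015), Igfbp5 (-0.19 to 0.066) and Igfbp6 (-0.20 to 0.066). For male against female they were Igf1r (-0.25 to 0.16), Insr (-0.13 to 0.050), Irs1 (-0.17 to 0.17), Igfbp2 (-0.095 to 0.27), Igfbp4 (-0.13 to 0.25) and Igfbp6 (-0.44 to 0.38).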
